A study of Mus musculus with 6 samples.

Results

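The genes described here encode the cell's cytosolic sensors of RNA and DNA together with the adaptors and kinases that carry their signal. They are 10 of the 36706 genes in each deposited table: Ifih1, Dhx58, Mavs, Zbp1, Trim25, Tbk1 and Ikbke, chosen by symbol, and the genes of RIG-I, cGAS and STING, which the tables hold as Ddx58, Cgas and Sting1. Membership rests on known function and used no measured value. Messenger RNA was sequenced from dendritic cells grown from wild-type mouse bone marrow in medium with 20 ng/mL GM-CSF, a cytokine under which marrow precursors become dendritic cells and macrophages. In one group of 3 libraries the cells had received interferon gamma (IFN-γ) together with 4-octyl itaconate (4-OI), an esterified, membrane-crossing form of the metabolite itaconate. The other 3 had IFN-γ alone, so every library saw the cytokine and no library shows the level without it. The labels give no dose or duration for either agent, no age and no statement that the replicates are separate cultures or animals, and the p-values therefore speak only of the spread among these 6 libraries, part of which may be technical. The sample titles name macrophages where the cell type label names dendritic cells.

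In the cytosol, RIG-I and MDA5 are helicases that bind double-stranded RNA, the kind that replicating viruses leave, and pass the signal to MAVS on the mitochondrial surface. LGP2, the third member of their family, lacks their signalling domains and tunes the other two, while TRIM25 is a ubiquitin ligase linked to RIG-I activation. For DNA, cGAS makes the messenger cGAMP, which binds STING on the endoplasmic reticulum. ZBP1 binds nucleic acids in the Z conformation and can engage the necroptosis kinase RIPK3. The MAVS and STING branches meet at the kinases TBK1 and IKKε, the product of Ikbke, which phosphorylate the transcription factor IRF3. Several of these genes are themselves induced by interferons, which is how a cell raises its sensors once infection has been signalled.

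The regulatory sequence just before and after the start sites of Ddx58, Ifih1, Ikbke and Trim25 is shown because these are the genes with a tabulated promoter that changed, the others lower and Trim25 higher with 4-OI. Each run holds 250 bases before and 50 after the RefSeq start site on GRCm38.p6, read 5′ to 3′ along the gene. Capitals mark matches to GAAANNGAAA, or its reverse complement TTTCNNTTTC, letters that occur within interferon-stimulated response elements. They also mark matches to GAAANGAAA, or TTTCNTTTC on the other strand, a closer spacing of the same repeats that was added after the promoters had been seen.
Ddx58, chr4:40239776-40240075, minus strand: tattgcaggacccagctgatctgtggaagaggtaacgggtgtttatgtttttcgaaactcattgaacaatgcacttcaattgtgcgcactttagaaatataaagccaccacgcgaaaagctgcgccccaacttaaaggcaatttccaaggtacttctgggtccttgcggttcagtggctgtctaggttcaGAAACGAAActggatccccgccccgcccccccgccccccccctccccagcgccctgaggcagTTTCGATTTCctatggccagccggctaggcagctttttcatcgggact
Ifih1, chr2:62646206-62646505, minus strand: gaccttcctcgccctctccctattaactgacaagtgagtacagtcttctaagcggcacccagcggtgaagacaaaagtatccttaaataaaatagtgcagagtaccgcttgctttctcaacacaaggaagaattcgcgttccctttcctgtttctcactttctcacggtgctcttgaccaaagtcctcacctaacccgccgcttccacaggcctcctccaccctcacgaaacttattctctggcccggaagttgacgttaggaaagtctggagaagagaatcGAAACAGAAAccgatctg
Ikbke, chr1:131279514-131279813, minus strand: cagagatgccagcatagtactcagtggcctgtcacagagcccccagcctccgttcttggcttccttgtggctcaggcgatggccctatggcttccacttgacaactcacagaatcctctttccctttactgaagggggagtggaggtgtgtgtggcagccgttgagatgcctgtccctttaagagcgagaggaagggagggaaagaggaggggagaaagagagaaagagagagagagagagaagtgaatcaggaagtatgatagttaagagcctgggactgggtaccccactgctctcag
Trim25, chr11:88999153-88999452, plus strand: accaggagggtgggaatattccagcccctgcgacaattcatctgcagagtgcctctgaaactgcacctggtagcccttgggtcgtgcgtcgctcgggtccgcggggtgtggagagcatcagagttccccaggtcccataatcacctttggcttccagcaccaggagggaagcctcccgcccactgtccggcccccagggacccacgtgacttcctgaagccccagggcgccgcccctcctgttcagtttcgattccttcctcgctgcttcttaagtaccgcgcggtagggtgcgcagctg

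Of the 10 genes, 7 had a promoter in the RefSeq table; Dhx58, Sting1 and Zbp1 did not. GAAANNGAAA was found in 2 of the 7, Ddx58 and Ifih1, and in 3.44% of all 32851 promoters of that length. The closer spacing was found in Ddx58 alone, against 3.17% of all promoters, and did not overlap the other match there. Neither spacing was in Ikbke, which fell, or in Trim25, which rose. TGACNNNGC, or GCNNNGTCA on the other strand, letters within the element bound by NRF2, was in Mavs alone and in 12.4% of all. GGGNNNNNCC, or GGNNNNNCCC, letters of NF-κB elements, was in Trim25, Cgas and Tbk1 and in 50.8% of all, and the matches of Trim25 and of Cgas each overlapped another on the other strand. A match describes letters in this window and is not a measured binding site.

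The libraries held 19656368 to 29244717 counts with 4-OI and 21710639 to 27510232 with IFN-γ alone. Levels are given as CPM, a gene's counts per 1000000 counts of its library, after scaling by TMM factors, which align the bulk of genes between libraries, and a gene was called where its edgeR quasi-likelihood p, adjusted by Benjamini-Hochberg over 14011 tested genes, was below 0.05. Called genes were 48.1% of those tested, 25.4% lower and 22.7% higher. When libraries were scaled by total counts alone the tested genes shifted to a median log2 fold change of -0.27, and 1719 genes were called higher and 5452 lower instead of 3181 and 3555. IFN-γ replicate 1 and IFN-γ+4-OI replicate 3 stood apart from the rest of their groups on the second principal component (10.7% of the variance). All 10 sensing genes passed the filter on low counts.

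With 4-OI, the genes of ZBP1 and of the RNA receptors were 2.40-fold to 5.32-fold lower. Every other gene of the 10 had a smaller change, the DNA sensor gene Cgas among them. Of the 10 genes, 6 fell, 1 rose and 3 did not pass, beside 25.4% lower and 22.7% higher among all tested genes. The 4 that fell by at least 2-fold were Zbp1, Ddx58, Dhx58 and Ifih1, and 11.1% of all tested genes fell that far. Sting1 and Ikbke fell by less, Trim25 rose, and Mavs, Cgas and Tbk1 did not pass. The median log2 fold change was -0.70 over the 10 genes and -0.01 over all tested genes. Without the 2 libraries that stood apart, 7 fell, Mavs with them (edgeR adjusted p = 0.0469), and 1 rose. In that fit 4695 of 14086 tested genes were lower and 4601 higher. Under total-count scaling 9 fell and 0 rose, with Mavs, Cgas and Tbk1 among the falls and Trim25 not passing. That scaling called 5452 of 14011 tested genes lower and 1719 higher. In whole cultures, fewer cells of a type that expresses a gene and less of its RNA per cell cannot be told apart.

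**Figure D1:**
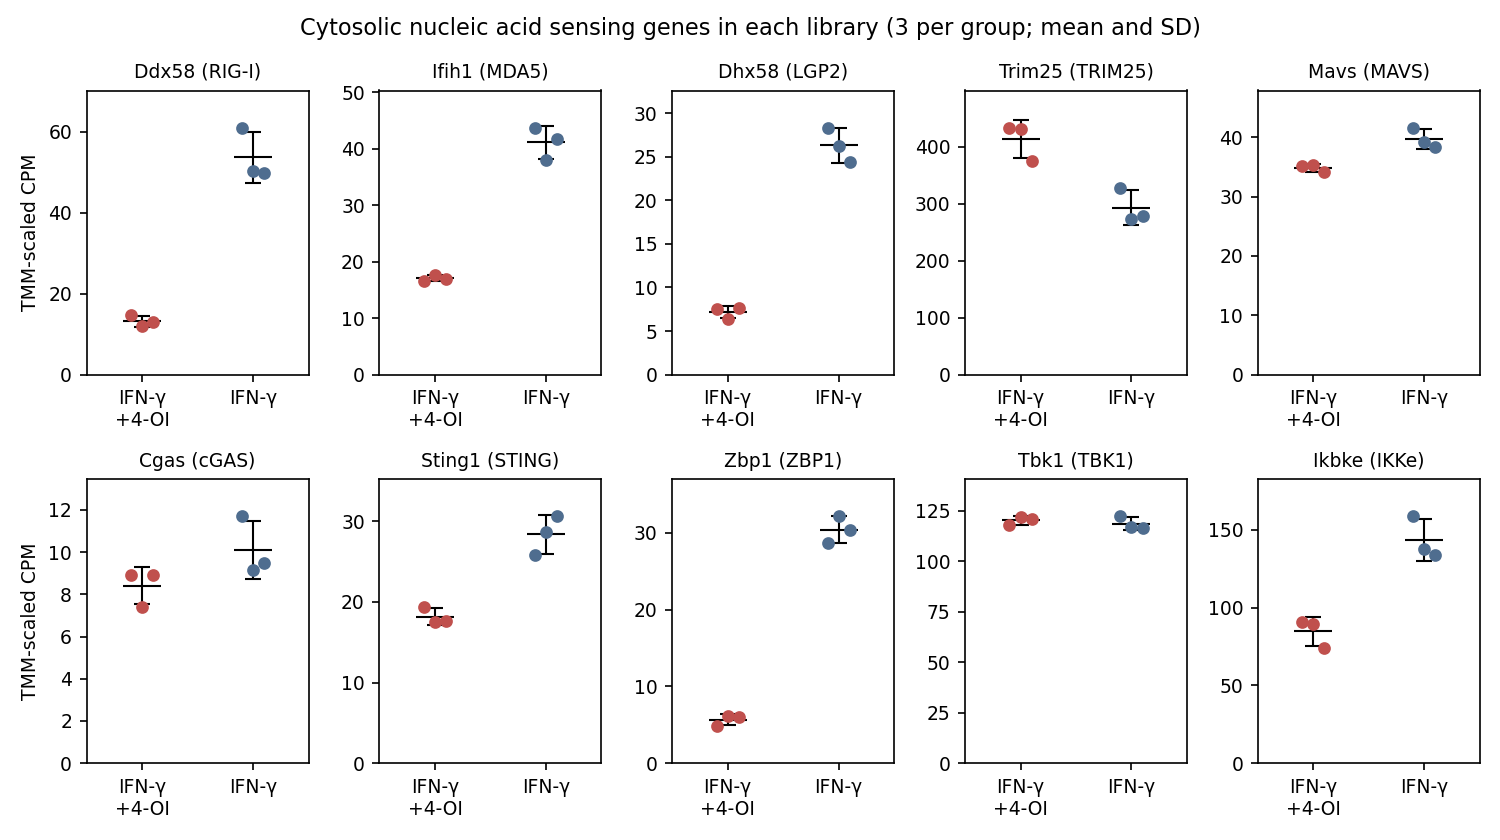
TMM-scaled CPM of each sensing gene in the 3 libraries of each group (points), with the mean and SD (black); each panel has its own linear axis from 0. The groups lie apart in every panel except that of Tbk1, as they do for 59.5% of all tested genes.

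Among the RNA receptors, Ddx58 had the deepest fall, followed by Dhx58, whose 95% interval overlapped its own. Ddx58, the gene of RIG-I, had 14.7, 12.0 and 12.9 CPM with 4-OI, against 61.0, 50.3 and 49.8 CPM with IFN-γ alone. All 3 libraries with 4-OI lay below the lowest without it, and the means were 13.2 ± 1.35 CPM with 4-OI and 53.7 ± 6.36 CPM with IFN-γ alone (SD, n = 3 each), a 4.08-fold fall (log2 fold change -2.03 ± 0.12, SE; edgeR adjusted p = 1.02e-05). In the deposited tables it lies on chromosome 4, 40203775 to 40239843, on the minus strand. Gene positions here and below are from those tables. No sensing gene shares an exact start or end there with RefSeq on GRCm38, the assembly of the promoters above. Dhx58, which encodes LGP2, had 7.49, 6.41 and 7.62 CPM with 4-OI and 28.3, 26.2 and 24.4 CPM with IFN-γ alone. Its groups did not overlap either, and it fell 3.67-fold (log2 fold change -1.88 ± 0.11; edgeR adjusted p = 9.05e-06). The gene spans chromosome 11, 100585710 to 100595165, minus strand, and shares 5.69% of its exon bases with Gm38483 on the opposite strand, a gene with 1 count with 4-OI and 20 with IFN-γ alone.

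Ifih1, the gene of MDA5, had the smallest fall of the 3 receptors. It had 16.7, 17.7 and 16.9 CPM with 4-OI, against 43.7, 38.0 and 41.6 CPM with IFN-γ alone, so its lowest library without 4-OI was still above all 3 with it. The fall was 2.40-fold (log2 fold change -1.27 ± 0.09; edgeR adjusted p = 2.01e-05), with a 95% interval of -1.47 to -1.06 that does not reach those of Ddx58 (-2.31 to -1.75) or Dhx58 (-2.13 to -1.62). It lies on chromosome 2, 62426137 to 62476599, minus strand.

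Within each library the receptors can also be set against each other per length, in TPM. Scaling between libraries plays no part in shares within a library. Levels in TPM compared between groups lack the TMM scaling. Tbk1 averaged 70.3 TPM with 4-OI and 90.8 TPM with IFN-γ alone, but 120 CPM with 4-OI and 119 CPM with IFN-γ alone. Summed over Ddx58, Ifih1 and Dhx58, the level was 16.6, 15.2 and 13.8 TPM with 4-OI and 82.5, 58.2 and 59.8 TPM with IFN-γ alone. Ifih1 took 33.1%, 38.6% and 34.5% of that sum with 4-OI, against 24.7%, 24.6% and 27.1% with IFN-γ alone, a mean of 35.4% ± 2.84 with 4-OI and 25.5% ± 1.45 with IFN-γ alone (SD, n = 3 each). Ddx58 took 30.9% ± 1.87 with 4-OI and 37.6% ± 1.27 with IFN-γ alone, and Dhx58 took 33.7% ± 1.84 with 4-OI and 36.9% ± 1.33 with IFN-γ alone. The groups did not overlap for any of these shares. Each gave p = 0.1 in an exact two-sided permutation test, the smallest that 3 libraries against 3 allow, and 0.1 after adjustment over 5 shares. With 4-OI, the TPM ranges of Ifih1, Dhx58 and Ddx58 overlapped from each to the next, whereas with IFN-γ alone that of Ifih1 (14.3 to 20.3 TPM) lay below those of Ddx58 (21.5 to 32.2 TPM) and Dhx58 (21.6 to 29.9 TPM).

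**Figure D2:**
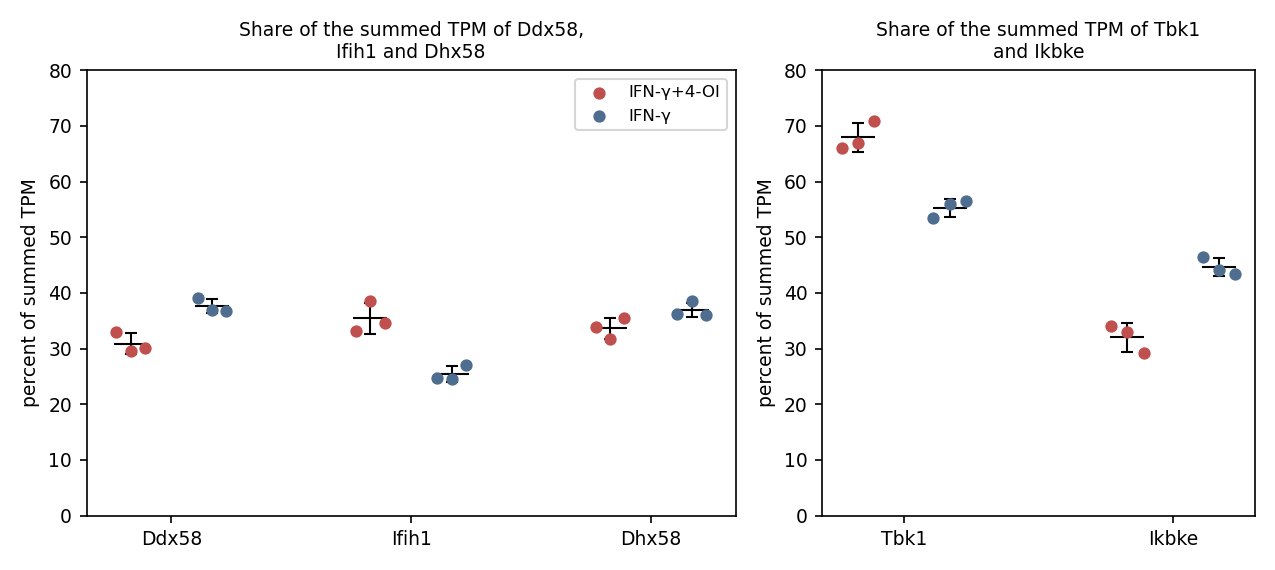
Percent of the summed TPM taken by each RIG-I-like receptor gene (left) and by each kinase gene (right) in the 3 libraries of each group, with the mean and SD. Ifih1 and Tbk1 held larger shares with 4-OI, at 35.4% against 25.5% and at 68.0% against 55.3%.

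Trim25 was the only one of the 10 called higher. It had 433, 432 and 376 CPM with 4-OI, against 328, 273 and 278 CPM with IFN-γ alone, and these ranges did not overlap. The rise was 1.41-fold (log2 fold change 0.50 ± 0.11; edgeR adjusted p = 0.00587), and with total-count scaling the log2 fold change was 0.24 and did not pass (edgeR adjusted p = 0.153). In TPM, with no TMM scaling, its groups overlapped, at 107 to 144 TPM with 4-OI and 103 to 153 TPM with IFN-γ alone. It lies on chromosome 11, 88890194 to 88911119, plus strand. Per length it was the most abundant of the 10 genes with 4-OI, at 131 ± 21.6 TPM, and with IFN-γ alone, at 122 ± 27.3 TPM, where its range overlapped that of Tbk1.

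Mavs, the adaptor to which RIG-I and MDA5 signal, stood at 35.1, 35.4 and 34.1 CPM with 4-OI and 41.6, 39.2 and 38.3 CPM with IFN-γ alone. These groups lay apart by a narrow margin. Groups lay apart, by any margin, for 59.5% of all tested genes. The log2 fold change of -0.19 ± 0.08 did not pass (edgeR adjusted p = 0.0815), and its 95% interval of -0.37 to -0.01 holds no fall as deep as those of the receptors. Mavs lies on chromosome 2, 131075445 to 131089945, plus strand.

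On the DNA side, the sensor and its adaptor differed in their calls. Cgas, of low abundance, had 8.90, 7.42 and 8.94 CPM with 4-OI and 11.7, 9.17 and 9.47 CPM with IFN-γ alone. The highest library with 4-OI lay just under the lowest without it, and the log2 fold change of -0.27 ± 0.13 did not pass (95% interval -0.58 to 0.04; edgeR adjusted p = 0.137). Cgas lies on chromosome 9, 78337800 to 78350519, minus strand. Sting1 had 19.4, 17.5 and 17.6 CPM with 4-OI, against 25.9, 28.6 and 30.7 CPM with IFN-γ alone, groups that did not overlap. It fell 1.56-fold (log2 fold change -0.65 ± 0.10; edgeR adjusted p = 9.91e-04). The 95% intervals of Cgas and Sting1 (-0.87 to -0.42) overlapped, and whether their changes differ was not tested.

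Zbp1 had the deepest fall of the 10. It had 4.88, 6.19 and 5.97 CPM with 4-OI, against 28.7, 32.2 and 30.4 CPM with IFN-γ alone, so each library with 4-OI held far less than any without. The fall was 5.32-fold (log2 fold change -2.41 ± 0.12; edgeR adjusted p = 3.59e-06), and 1.42% of tested genes had a lower log2 fold change. Zbp1 lies on chromosome 2, 173048405 to 173060715, minus strand. Among the 10 genes it was the fourth in TPM with IFN-γ alone, at 32.4 ± 2.09 TPM. With 4-OI it was next to last, at 4.64 ± 0.61 TPM, above Cgas at 3.59 ± 0.36 TPM.

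The kinases at which the branches meet parted. Tbk1 had 118, 122 and 121 CPM with 4-OI and 122, 117 and 117 CPM with IFN-γ alone, and its groups overlapped. Its log2 fold change was 0.02 ± 0.07 with a 95% interval of -0.15 to 0.19 (edgeR adjusted p = 0.841), and under total-count scaling it was -0.24 (edgeR adjusted p = 0.0463), near the median shift of all genes under that scaling. Ikbke had 90.6, 89.8 and 74.1 CPM with 4-OI, against 159, 138 and 134 CPM with IFN-γ alone, with no overlap. It fell 1.69-fold (log2 fold change -0.76 ± 0.11; edgeR adjusted p = 8.79e-04).

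Per length, Tbk1 made up 66.0%, 67.0% and 70.9% of the summed TPM of both kinases with 4-OI, against 53.5%, 55.9% and 56.5% with IFN-γ alone (exact two-sided permutation p = 0.1, and 0.1 adjusted over 5 shares). The 3 shares with 4-OI were all above the 3 without, a difference of 12.6 percentage points, or 10.3 without the 2 libraries that stood apart. Tbk1 lies on chromosome 10, 121382360 to 121422699, and Ikbke on chromosome 1, 131182337 to 131207339, both on the minus strand. Ikbke shares 3.76% of its exon bases with Gm28913 on the opposite strand, which had 703 counts with 4-OI and 1628 with IFN-γ alone beside 5950 with 4-OI and 11223 with IFN-γ alone for Ikbke. Whether reads were assigned between such partners by strand is not given in the sources used here.

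**Figure D3:**
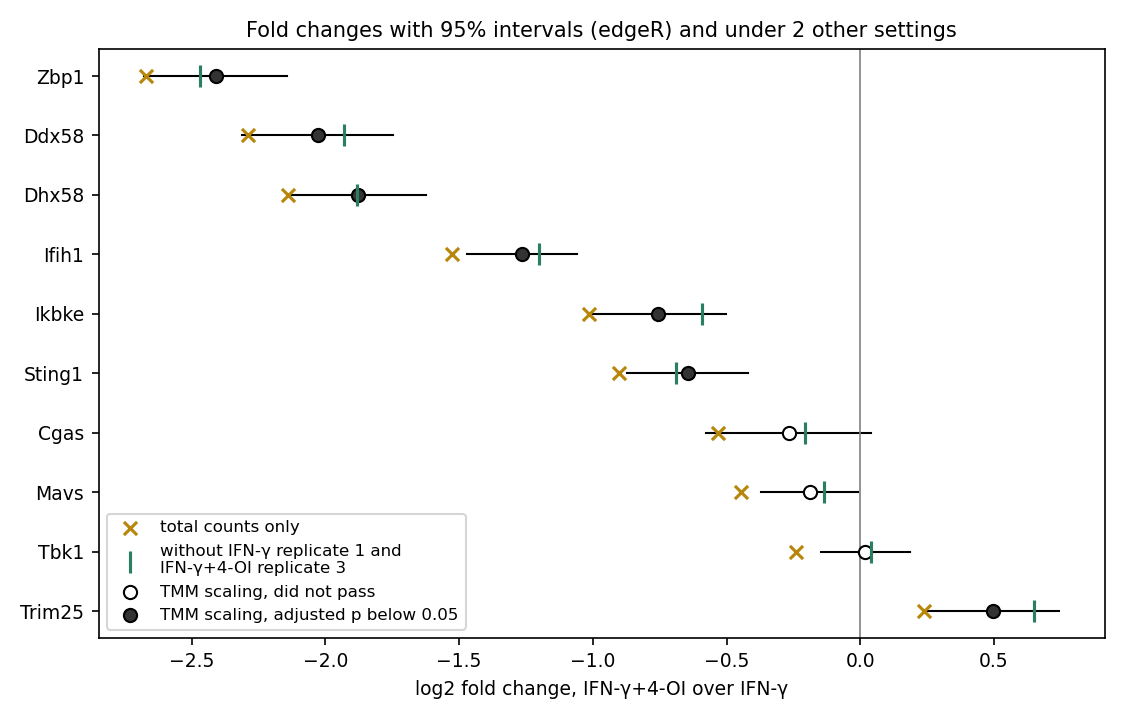
log2 fold change of each sensing gene, IFN-γ+4-OI over IFN-γ, with its 95% interval under TMM scaling (filled circles passed an adjusted p of 0.05), under total-count scaling (crosses) and without the 2 libraries that stood apart (ticks). Zbp1, Ddx58, Dhx58 and Ifih1 lie below -1 in each of the 3 settings, and Tbk1 is the gene whose sign differs between them.

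Set in order per length, the genes kept Trim25, Tbk1 and Ikbke at the top and Cgas at the bottom in both groups. The ranges of the top 3 did not overlap each other with 4-OI and overlapped from each to the next with IFN-γ alone. With 4-OI the top 3 were followed by Mavs (16.6 ± 1.79 TPM) and Sting1 (13.8 ± 1.75 TPM), whose ranges overlapped, and then by Ifih1, Dhx58, Ddx58 and Zbp1 at mean levels of 5.37, 5.10, 4.71 and 4.64 TPM, each overlapping the next. Cgas lay below the range of Zbp1. With IFN-γ alone Zbp1 came next after the top 3, with a range apart from those of Ikbke and Sting1 that overlapped that of Ddx58. Sting1 (28.0 ± 1.70 TPM), Ddx58, Mavs (24.7 ± 3.94 TPM) and Dhx58 then overlapped from each to the next, and Ifih1 and Cgas (5.72 ± 1.49 TPM) each lay below the gene before. With 4-OI the 3 RNA receptors and Zbp1 all lay below Mavs and Sting1. With IFN-γ alone Ddx58 and Dhx58 overlapped both of these adaptors, Zbp1 lay above both and Ifih1 below both.

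IFN-γ replicate 1 was the highest library of its group for 8 of the 10 genes and the lowest for Sting1 and Zbp1. IFN-γ+4-OI replicate 3 was the lowest of its group for Trim25, Mavs and Ikbke and the highest for Dhx58 and Cgas. Without both, the log2 fold changes were -2.47 for Zbp1, -1.93 for Ddx58, -1.88 for Dhx58, -1.20 for Ifih1, -0.69 for Sting1, -0.59 for Ikbke and 0.65 for Trim25. Leaving out any single library left the log2 fold change of Zbp1 at -2.47 to -2.31 and that of Ddx58 at -2.10 to -1.94.

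The rest of the pathway was read from lists of other genes that act on these sensors. Over 7 lists with 115 genes, 93 were tested, of which 20 fell, 23 rose and 50 did not pass, beside 25.4% lower and 22.7% higher among all tested genes. Their median log2 fold change was 0.06, near that of all tested genes. The counts were 37 lower and 12 higher under total-count scaling, and 33 lower and 32 higher without the 2 libraries that stood apart. The background moved as well. Under total-count scaling 5452 of all 14011 tested genes were lower and 1719 higher. Without the 2 libraries 4695 of 14086 were lower and 4601 higher. With a single library left out, 5275 to 7835 genes were called. Counts of single lists under such settings, given below, stand beside these totals.

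Among all tested genes, 22.7% were called higher and 25.4% lower. Cofactors of the RIG-I-like receptors and adaptors of MAVS rose in 6 of 19 cases and fell in 1. Only 2 rose without IFN-γ replicate 3, without IFN-γ+4-OI replicate 2 or under total-count scaling, which gave 6 lower. Lower genes numbered 3 without IFN-γ replicate 1, 2 without IFN-γ+4-OI replicate 3 and 4 without both. The gene that fell with all libraries in was Ddx60, an interferon-induced helicase linked to RIG-I signalling, at 6.40 ± 0.73 CPM with 4-OI and 32.2 ± 6.10 CPM with IFN-γ alone, 5.01-fold lower (edgeR adjusted p = 1.88e-05). Rnf135, which encodes Riplet, a ubiquitin ligase of RIG-I, rose 1.62-fold (edgeR adjusted p = 0.00142) and Trim65, a ubiquitin ligase of MDA5, 1.38-fold (edgeR adjusted p = 0.0118). The call of Trim65 was lost with total-count scaling, without IFN-γ replicate 3 and without IFN-γ+4-OI replicate 2. Ripk1, a kinase of cell death and inflammatory signalling, rose 1.57-fold (edgeR adjusted p = 8.95e-04). Genes that restrain RNA sensing fell in 7 of 18 cases and rose in 3. Under total-count scaling 10 fell and 1 rose, 1 rose without IFN-γ+4-OI replicate 2, and 5 rose without both libraries that stood apart. Nlrc5, also a regulator of MHC class I genes, fell 2.33-fold (edgeR adjusted p = 2.70e-04). Tnfaip3, the NF-κB inhibitor A20, fell 1.51-fold and the mitochondrial fusion gene Mfn2 1.59-fold. Those that rose were Atg12, of the autophagy conjugation system, 1.49-fold, Mul1, a mitochondrial ubiquitin ligase, 1.27-fold, and Pcbp1, an RNA-binding protein, 1.28-fold. The calls of Mul1 and Pcbp1 were lost under total-count scaling and when some single libraries were left out.

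Among scaffolds of the kinases and the transcription factors beyond them, 4 of 13 rose and 4 fell, or 2 rose and 5 fell under total-count scaling. With TMM scaling, 22.7% of all tested genes were called higher and 25.4% lower. Ikbkg, which encodes NEMO, the regulatory subunit of the IκB kinase, had 331 ± 20.0 CPM with 4-OI and 105 ± 8.52 CPM with IFN-γ alone, 3.16-fold higher (edgeR adjusted p = 7.88e-06). Azi2, a scaffold of TBK1, rose 1.56-fold and Optn, another partner of TBK1, 1.34-fold. The call of Optn was lost under total-count scaling. Irf7, the interferon-induced transcription factor that the kinases activate, had 11.1 ± 1.16 CPM with 4-OI and 47.1 ± 1.61 CPM with IFN-γ alone, 4.22-fold lower (edgeR adjusted p = 3.82e-06). Irf5 fell 1.55-fold and Ikbkb 1.26-fold, while Irf3 had a log2 fold change of 0.06 and did not pass (edgeR adjusted p = 0.654).

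The share of all tested genes called higher was 22.7%, and 25.4% were called lower. Genes of DNA clearance, cGAMP handling and STING traffic rose in 5 of 25 tested cases and fell in 4. The counts were 3 higher and 11 lower under total-count scaling, and 6 higher and 12 lower without both libraries that stood apart. Higher genes numbered 3 under upper quartile scaling and whichever library with 4-OI was dropped, and lower genes 2 without IFN-γ replicate 3 or without IFN-γ+4-OI replicate 2. Abcc1, an exporter of glutathione conjugates that also exports cGAMP, rose 3.45-fold (edgeR adjusted p = 5.63e-05). Stim1, a calcium sensor that holds STING at the endoplasmic reticulum, rose 1.72-fold and Npc1, a lysosomal cholesterol transporter, 1.77-fold. Lrrc8c, a subunit of volume-regulated channels that carry cGAMP, fell 1.64-fold, Samhd1, which degrades deoxynucleotides, 1.34-fold, and Rnf26, a ubiquitin ligase of STING, 1.29-fold. The call of Rnf26 was lost without IFN-γ replicate 3 and without IFN-γ+4-OI replicate 2. Trex1, the exonuclease that clears cytosolic DNA, is listed at 0 in all 6 libraries, and 99.9% of its exon bases also belong to the readthrough gene Atrip-trex1, with 44 counts with 4-OI and 53 with IFN-γ alone, so its level cannot be read from these counts.

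The lists of RNA polymerase III and of ZBP1 partners also stand beside 22.7% of all tested genes called higher and 25.4% lower. Subunits of RNA polymerase III, which can turn cytosolic DNA into RNA that RIG-I binds, rose in 3 of 11 cases and fell in 2, or 5 and 3 without both libraries that stood apart. The falls numbered 1 with no low-count filter and without IFN-γ replicate 3, IFN-γ+4-OI replicate 2 or IFN-γ+4-OI replicate 3. Polr3d rose 1.71-fold, Crcp 1.54-fold and Polr3e 1.30-fold, and the alternative subunits Polr3gl and Polr3g fell 1.31-fold and 1.29-fold. The call of Polr3e was lost under total-count scaling and that of Polr3g when low counts were left unfiltered, and likewise without any 1 of 3 single libraries. Partners of ZBP1 and genes of necroptosis rose in 3 of 10 cases and fell in 3. Mlkl, the executor of necroptosis, had 35.7 ± 0.67 CPM with 4-OI and 18.5 ± 1.28 CPM with IFN-γ alone, 1.93-fold higher (edgeR adjusted p = 7.03e-05). Ripk3, which ZBP1 engages, had a log2 fold change of 0.07 and did not pass (edgeR adjusted p = 0.594). Birc3 rose 1.59-fold, and Birc2, Adar and Cflar fell 1.51-fold, 1.53-fold and 1.45-fold. Adar encodes the RNA-editing enzyme whose interferon-induced form binds Z-form RNA, as ZBP1 does. The call of Cflar was lost without IFN-γ+4-OI replicate 2 and without IFN-γ+4-OI replicate 3.

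Several named genes share exon bases with a gene on the opposite strand, and how such reads were assigned is not given in the sources used here. The share was 15.8% for Azi2 with Cmc1, which had 3061 counts with 4-OI and 2954 with IFN-γ alone, and 13.8% for Irf5 with Tnpo3, which had 2746 with 4-OI and 3726 with IFN-γ alone. It was 5.02% for Npc1 with Rmc1 (3030 counts with 4-OI and 3720 with IFN-γ alone). Ripk1 shares 1.45% with Serpinb6a, which had 21625 counts with 4-OI and 6682 with IFN-γ alone, a difference in the same direction as that of Ripk1. Ikbkg shares 0.501% with G6pdx (12448 counts with 4-OI and 9682 with IFN-γ alone). Azi2 also shares 5.55% with Rbms3 and 5.93% with Zcwpw2, and the shares were 1.25% for Nlrc5 with 9330175E14Rik and 0.115% for Adar with Chrnb2, partners with at most 150 counts per group. Among the sensing genes, Ifih1 shares 1.81% with Gm39839 and Trim25 1.14% with Gm11496, partners with at most 52 counts per group. The part of these partners in the changes was not tested.

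The type I and III interferons, some of which these pathways induce, were almost undetected in both groups. Of 19 type I and III interferon genes, 17 had 0 counts in all 6 libraries. Counting error alone allows up to 0.109 to 0.163 CPM per library with 4-OI and 0.102 to 0.127 CPM with IFN-γ alone. How reads that match several genes were counted is not given in the sources used here, and these values do not cover reads lost that way. Ifnb1 had 0 counts over the 3 libraries with 4-OI and 1 with IFN-γ alone, and Ifnk had 13 with 4-OI and 7 with IFN-γ alone. None was tested, and no difference was detectable from these counts.

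**Figure D4:**
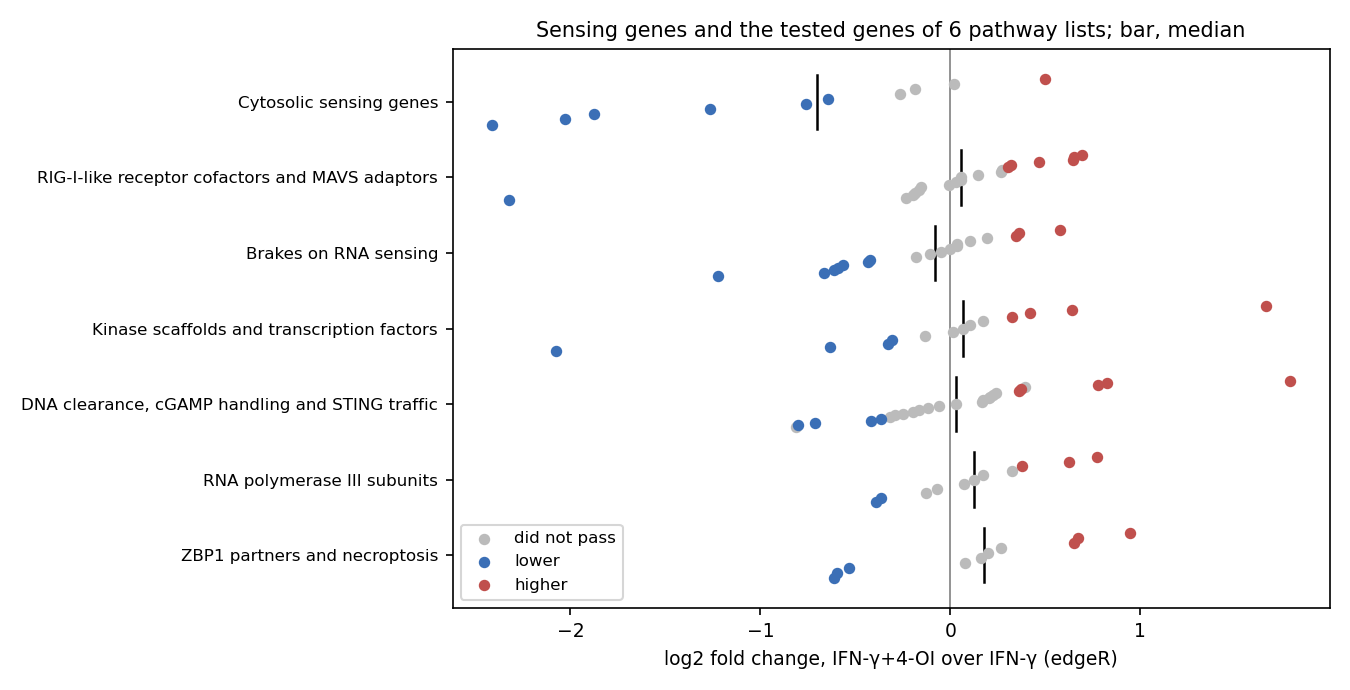
log2 fold change, IFN-γ+4-OI over IFN-γ, of each tested gene in the sensing group (top row) and in 6 lists of related genes, coloured by call; the black bar is the median of each row. The sensing genes have a median of -0.70, and the medians of the 6 lists run from -0.08 to 0.18.

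The mean profile of the RIG-I-like receptors was compared with every tested gene outside the 10 sensing genes. The measure was the Euclidean distance between log2 CPM values centred on each gene's mean over 6 libraries. This mean averages receptors that differ, with log2 fold changes of -2.03, -1.88 and -1.27. The distance of each receptor from it was not measured. The nearest to the mean profile of Ddx58, Ifih1 and Dhx58 were Slc7a5, an amino acid transporter (distance 0.117), Scd1, a fatty acid desaturase (0.122), Enah, an actin regulator (0.127), Cd244a, a receptor of leukocytes (0.136), and Lepr, the leptin receptor (0.145). The median distance over 14001 genes was 2.16. These 5 genes were chosen for their small distance, so their log2 fold changes of -1.75 to -1.65 are no separate result.

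Markers of cell types that such cultures can hold were also read. Of all tested genes, 25.4% were called lower and 22.7% higher. Conventional dendritic cell markers fell in 4 of 5 tested cases and summed to 1645 to 1797 CPM with 4-OI and 2122 to 2473 CPM with IFN-γ alone. Cd209a, of the same list, had 2 counts with 4-OI and 5 with IFN-γ alone. Monocyte markers fell in 4 of 5 cases, Ccr2 from the same list having 15.6 CPM with 4-OI and 124 CPM with IFN-γ alone, while the list summed to 5182 to 6300 CPM with 4-OI and 5560 to 6980 CPM with IFN-γ alone. Chil3, which did not pass, made up most of both sums, at 5239 CPM with 4-OI and 5085 CPM with IFN-γ alone. All 4 tested mast cell and basophil markers fell, summing to 46.8 to 54.8 CPM with 4-OI and 145 to 165 CPM with IFN-γ alone. Macrophage markers rose in 2 and fell in 2 of 6 cases and summed to 2141 to 2260 CPM with 4-OI and 1554 to 1704 CPM with IFN-γ alone. Neutrophil markers rose in 2 and fell in 2 of 6, and summed to 1506 to 2186 CPM with 4-OI and 966 to 1613 CPM with IFN-γ alone. Plasmacytoid dendritic cell markers rose in 1 and fell in 1 of 3, summing to 165 to 181 CPM with 4-OI and 192 to 251 CPM with IFN-γ alone, and Siglech, which defines that type, was at 0 in all 6 libraries. B cell markers, none of 5 called, summed to 7.43 to 8.65 CPM with 4-OI and 9.18 to 10.1 CPM with IFN-γ alone. Of the T and NK cell markers 1 was tested and fell, and the list summed to 1.09 to 1.48 CPM with 4-OI and 1.35 to 2.76 CPM with IFN-γ alone. The part of these cell types in the changes of the sensing genes was not tested.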

How the data were processed

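Libraries came from a strand-specific mRNA kit, per the labels; HISAT2 and mm10 appear in the submitters' processing notes. The authors deposited 1 table per sample with whole-number counts, TPM and FPKM per gene, per the file headers. How reads were counted, with which strand setting and on which annotation, is not given in the sources used here. None of the 10 genes shared a start or an end with RefSeq on GRCm38. Ifih1, on the minus strand, ends at 62476599 in the deposited tables, whereas its RefSeq promoter spans 62646206 to 62646505. Ddx58, also on the minus strand, ends at 40239843, inside its RefSeq promoter, which spans 40239776 to 40240075. An unequal start or end alone does not show a different assembly. The assembly of the deposited positions was not established. Gene positions are therefore those of the deposited tables, are not taken as mm10, and are not combined with the promoter positions. The deposited counts were tested; the deposited TPM served for levels per length, and the deposited FPKM were not used.

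The test was that of edgeR 4.0.16 (R 4.3.3): filterByExpr with a minimum count of 10, TMM factors, and the robust quasi-likelihood test with group as the only term, adjusted over all genes tested. SE is the log2 fold change divided by the square root of F. Floors are 3 counts and, like the counts, cover counting error only. Scripts were tested on simulated data. Replicate pairs differed by more than sampling noise (chi-square per gene of at least 4.29). Replicate numbers are shared between groups with no statement that they pair samples.

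Genes named are the 10 members, of each list all called genes if 5 or fewer and otherwise the 3 with the smallest p in each direction, and the 5 nearest profiles. Irf3, Ripk3, the interferons, Trex1 and the markers named were chosen after their values were seen. The members and lists were chosen with earlier results of these data known. Alternatives were RLE, upper quartile and total-count scaling, other filters, DESeq2 1.42.0, limma-voom (limma 3.58.1), a replicate block, an adjusted p of 0.01 and each library left out; leaving out both libraries that stood apart and the motif with closer spacing were chosen after seeing the data. Trac, on the T cell list, is not analysed here. A further promoter motif that was searched is not reported here.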

Additional observations from a re-analysis of the deposited data

How the results depend on the processing

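Over 15 other settings, the 10 sensing genes gave 150 fold changes, of which 145 kept their direction and their side of the threshold. The exceptions were Trim25 (no longer passing), Mavs and Cgas (passing as lower) and Tbk1 (log2 fold change reversed to -0.24) under total-count scaling, and Mavs without both libraries that stood apart. Zbp1, Ddx58, Dhx58, Ifih1, Sting1 and Ikbke passed as lower in all 15. Among the other genes named, the settings were compared for 37, all of them called genes of the lists or nearest profiles. Of these 37, 29 kept their call in every setting and none changed sign. Irf3 and Ripk3, which did not pass, were not among the 37, and neither were the interferons, Trex1 or the markers named. Whether the log2 fold changes of Irf3 and Ripk3 keep their sign in the other settings is therefore not covered.

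Total-count scaling gave 1719 genes higher and 5452 lower, 0 sensing genes higher, and 12 listed pathway genes higher and 37 lower. By its construction that scaling shifts all log2 values of a library by the same amount, and the median of the tested genes moved to -0.27. At an adjusted p of 0.01, 2079 genes and 14 listed pathway genes were higher, among them 2 RIG-I-like receptor cofactors, 1 gene that restrains RNA sensing and 3 genes of the DNA list, in which 2 were lower. Without both libraries that stood apart, 33 listed pathway genes were lower, beside 4695 of 14086 tested genes. Leaving out 1 library at a time gave 15 to 25 listed pathway genes higher, the lowest without IFN-γ+4-OI replicate 2. The share of Ddx58 among the receptors differed by -9.09 percentage points in CPM not divided by length, against -6.68 in TPM, and that of Tbk1 between the kinases by 10.3 points without both libraries that stood apart, against 12.6. The cause of these differences was not tested beyond the scaling itself.

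With the replicate number as a block, 6 sensing genes fell and 1 rose, as without it, and 3588 genes were higher and 3925 lower. Deviations of same-numbered libraries from their group means correlated at 0.265, -0.1 and 0.193, so the numbers were not taken to pair the samples. Low counts limit the interferon genes, at 0 to 13 counts per group.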
